A study of Rattus norvegicus with 18 samples.

Results

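The genes described here encode calcitonin gene-related peptide (CGRP) and the parts of the receptors it acts on. They are *Calca*, *Calcrl*, *Ramp1* and *Ramp3*, 4 of the 32882 genes in each deposited table, and they were found by their gene names. *Calca* was selected on its measured log2 fold change in *Ets1*-KO cells of the spinal cord parenchyma, among the highest there, and the other genes because they encode its receptor, with these data known. The values of that comparison are therefore given as a description, without a test for these genes, while the spleen comparisons were tested.

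CGRP is a neuropeptide best known from sensory neurons, where it dilates blood vessels and modulates immune cells. The gene *Calca* yields either calcitonin or alpha-CGRP by alternative splicing. The receptor protein encoded by *Calcrl* needs an accessory protein to reach the cell surface: with the product of *Ramp1* it forms the CGRP receptor, and with the products of *Ramp2* or *Ramp3* it forms adrenomedullin receptors. These receptors couple to the G protein Gs and raise cyclic AMP (cAMP), and G protein-coupled receptor kinases such as GRK2 and arrestins switch such receptors off.

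Gene expression was measured by 3′ mRNA sequencing in 18 libraries of rat CD4+ T-MBP cells, that is, CD4+ T cells that recognize myelin basic protein and cause a multiple sclerosis-like disease on transfer. All cells came from a T cell line raised against that protein, were restimulated with it in culture, and were recovered from Lewis rats on day 3 after transfer, for which the labels give no age. There were 6 groups of 3 libraries. *Ets1*-KO cells were sampled in both the spinal cord parenchyma and the spleen, *Grk2*-KO cells in the spleen, and each of these 3 KO groups had NT control cells of its own. The KO cells had received Cas9 with a guide RNA against *Ets1*, which encodes a transcription factor of the ETS family, or against *Grk2*, and carried GFP. The control cells, labelled WT, had received Cas9 with a non-targeting (NT) guide and carried BFP, so genotype and colour marker cannot be told apart. KO cells were an edited pool and not a clone. Cells were sorted on their colour, those from the spleen after CD4+ enrichment and those from the parenchyma after a density gradient. The methods call all replicates biological, but the labels do not say which libraries share an animal, so the p-values refer to libraries. Standard errors and p-values by limma took the spread between libraries largely from a trend of variance over all genes tested. In the parenchyma they rested on that trend alone, and not on the spread of the single gene.

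The targeted genes were examined first. *Grk2* mRNA fell in *Grk2*-KO cells, from 157.9 ± 14.1 to 68.3 ± 17.4 normalized counts (mean ± SD, n = 3), with a log2 fold change of -1.22 ± 0.13 (SE) and an adjusted p of 1.76e-12 by limma. No difference in *Ets1* mRNA passed the test in *Ets1*-KO cells, with 2400 ± 150.0 against 2551 ± 182.9 normalized counts in the parenchyma (adjusted p = 0.560 by limma) and 2077 ± 135.1 against 2000 ± 324.5 in the spleen (0.854), control first, and overlapping groups in both. Reads from transcript ends do not show edits elsewhere in a gene, so these counts check nothing about the editing of *Ets1*. Libraries held 898092 to 2248258 reads on genes, and in the spleen *Ets1* comparison the KO libraries were deeper (1909862 to 2248258) than their controls (898092 to 1213485). The third *Ets1*-KO library of the spleen stood apart from the other two of its group (chi-square per degree of freedom of their counts 8.95 and 9.23, against 2.83 between the other two). The 2 sets of spleen controls differed more from each other (20.3 to 30.1) than the libraries within either set (1.48 to 4.60). All 8 T cell markers were read in every group, with a summed level of 2300 to 3089 RPM (reads per 1000000 recovered reads of the library) in each library. Spleen and parenchyma values come from tables that were scaled separately, so levels were not tested across tissues.

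In Rnor_6.0, the genome build of the files, *Calca* (ENSRNOG00000011130) lies on the minus strand of chromosome 1 at 184184019 to 184188911, and *Calcrl* (ENSRNOG00000054695) on the minus strand of chromosome 3 at 71747955 to 71845232. *Ramp1* (ENSRNOG00000019926) lies on the plus strand of chromosome 9 at 98313631 to 98364205, and *Ramp3* (ENSRNOG00000053766) on the plus strand of chromosome 14 at 86922222 to 86939719. All 4 are protein-coding genes, and the counts are totals per gene. The 250 bases before the start of *Calca*, which was higher in *Ets1*-KO cells of the parenchyma, and of *Ramp1*, which was higher in those of the spleen, are printed here because the edited gene encodes an ETS factor. They were taken from RefSeq, build GRCr8, and are printed 5′ to 3′ in the direction of the gene. Capitals mark GGAA, the core that ETS factors bind, and TGACG, a part of the cAMP response element, each also as its reverse complement (TTCC and CGTCA).
Calca (chr1:178317530-178317779, minus strand): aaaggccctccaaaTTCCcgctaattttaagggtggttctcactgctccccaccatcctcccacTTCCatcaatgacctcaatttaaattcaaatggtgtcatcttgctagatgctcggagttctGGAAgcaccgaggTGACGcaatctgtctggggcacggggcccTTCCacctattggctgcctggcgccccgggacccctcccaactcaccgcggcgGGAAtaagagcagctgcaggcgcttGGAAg
Ramp1 (chr9:99212866-99213115, plus strand): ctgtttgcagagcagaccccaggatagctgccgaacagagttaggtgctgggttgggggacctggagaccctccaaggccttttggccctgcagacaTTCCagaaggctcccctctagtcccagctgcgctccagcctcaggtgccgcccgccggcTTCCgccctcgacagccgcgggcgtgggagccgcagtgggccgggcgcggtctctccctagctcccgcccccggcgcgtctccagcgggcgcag

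The *Calca* window held 6 GGAA cores, the closest beginning at position -5 from the start, and 1 TGACG at position -112. The *Ramp1* window held 2 GGAA cores and no TGACG, the *Ramp3* window 6 and none, and the *Calcrl* window 1 and none. Such short motifs are common: of 33469 promoter windows of this length, 93.2% held at least 1 GGAA core (median 3) and 18.2% held a TGACG, and 9.27% held 6 or more GGAA cores. The longer ETS motif CCGGAAG, which contains the core, and the full element TGACGTCA, which contains TGACG, were searched on both strands and occurred in none of the 4 windows, against 7.27% and 1.59% of all windows. A match is a description of the letters and not a site of binding.

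The peptide gene *Calca* was read in the T-MBP cells of the parenchyma and almost nowhere in the spleen. Control cells of the parenchyma held 7.47, 15.0 and 7.86 normalized counts in replicates 1, 2 and 3 (10.1 ± 4.26), and *Ets1*-KO cells held 64.7, 85.9 and 66.9 (72.5 ± 11.7). The lowest KO library lay far above the highest control library. The log2 fold change was 2.78 ± 0.26 (SE of the limma fit, set by the trend over all genes, n = 3 pairs). The same-numbered pairs gave differences of 2.95, 2.44 and 2.94. Of 7002 genes tested in this comparison, *Calca* had the second highest log2 fold change (rank 2). For scale, 5.23% of these genes passed an adjusted p of 0.05, 2.27% higher and 2.96% lower in KO cells, and 7.87% had KO libraries that all lay above the controls. Since this comparison chose *Calca*, nothing further is read from its place there.

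In the spleen, *Calca* had 0 reads in all 9 control and *Ets1*-KO libraries of both tables and 1 read in a single *Grk2*-KO library. The reads behind the parenchyma values were 8, 16 and 8 in control cells and 64, 85 and 59 in *Ets1*-KO cells. The summed reads gave 7.14 RPM in control cells (95% exact Poisson interval 4.89 to 10.1) and 51.4 in *Ets1*-KO cells (44.7 to 58.9). These intervals cover counting error only. A count of 0 over the summed reads of a group allows up to 3 counts, which would be 0.906 RPM in the spleen controls of the *Ets1* table, 0.819 in those of the *Grk2* table and 0.479 in the spleen *Ets1*-KO cells. The measured level in control cells of the parenchyma was 7.89 and 8.72 times the values so allowed in the 2 sets of spleen controls. That in *Ets1*-KO cells of the parenchyma was 107 times the value allowed in *Ets1*-KO cells of the spleen. These ratios leave out the counting error of the parenchyma reads, so they are not lower bounds. With no reads in the spleen, an effect of *Ets1* editing on *Calca* was not detectable there at this depth. In bulk samples, more cells that express a gene and more RNA per cell cannot be told apart.

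**Figure D1:**
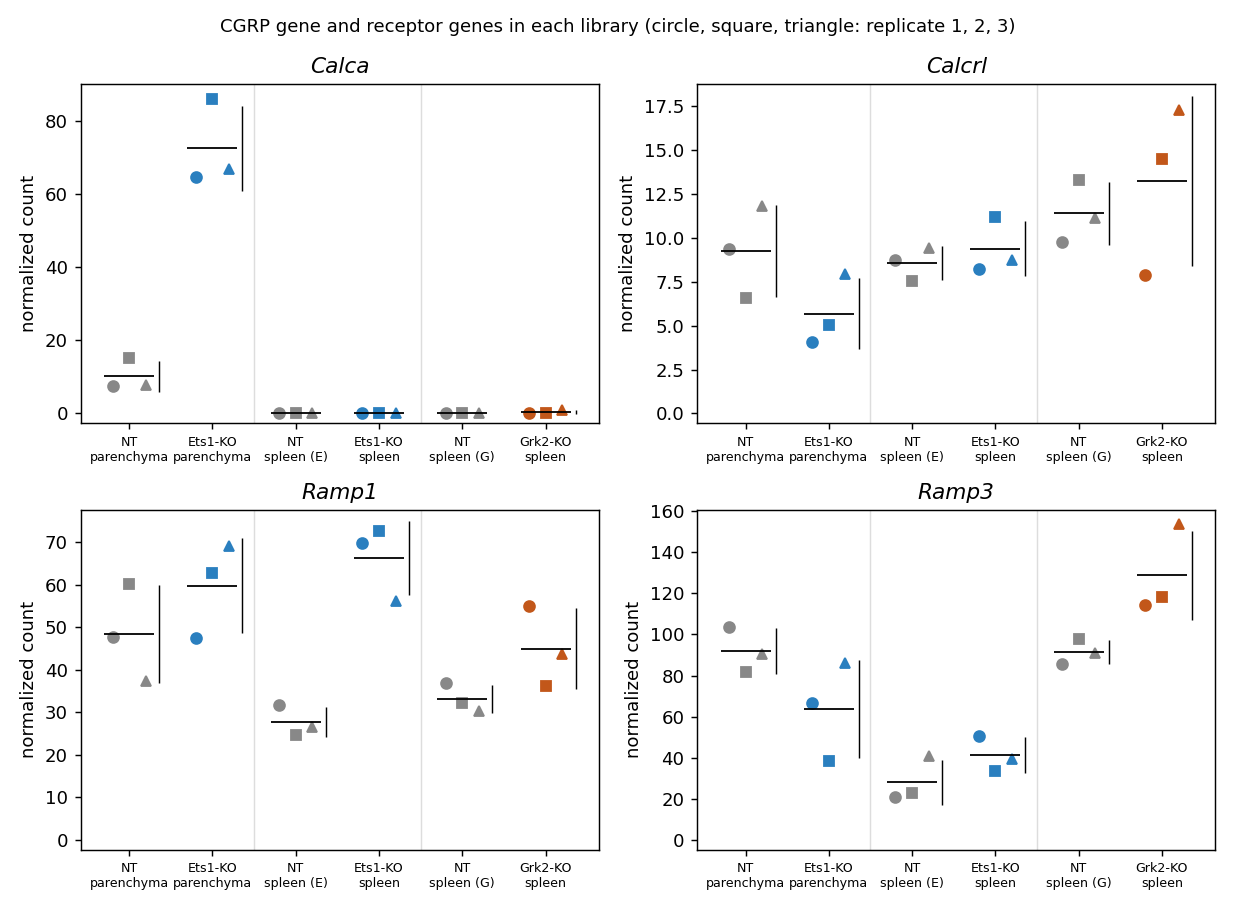
Normalized counts (y axis, linear, from 0) of the 4 genes in each of the 18 libraries; symbols mark replicates 1, 2 and 3, horizontal bars the group mean and vertical bars ± 1 SD, with E and G for the spleen controls of the Ets1 and Grk2 tables. Calca was at 64.7 to 85.9 in Ets1-KO cells of the parenchyma, at 7.47 to 15.0 in their controls, and at or next to 0 in every spleen library.

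Reads on *Calca* cannot be divided between calcitonin and alpha-CGRP from counts per gene. The neighbouring gene *Calcb* encodes beta-CGRP, is closely similar in sequence and lies 82677 bases from *Calca*, so reads could be shared between the pair. *Calcb* had 4 reads in the parenchyma controls, 0 in parenchyma *Ets1*-KO cells and 1 in all spleen libraries together.

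Because CGRP is a neuronal peptide, markers of other cells in the parenchyma were read in the same libraries. Of the 12 neuron markers, 5 were at 0 in control and 7 in *Ets1*-KO cells of the parenchyma, with *Prph*, *Chat* and *Slc18a3* at 0 in both. The summed neuron list reached 3.34 to 6.26 RPM in control cells and 5.76 to 20.5 in *Ets1*-KO cells. Most of the latter was *Nefl*, a neurofilament gene, at 2.90 in control and 10.9 in *Ets1*-KO cells, and the 11 markers other than *Nefl* had 9 and 7 summed reads while *Calca* had 32 and 208. The 6 glia markers summed to at most 8.35 RPM. The endothelial list had no read in the parenchyma controls and at most 0.708 RPM in *Ets1*-KO cells, with 7 of its 8 markers in the table. The 10 myeloid markers summed to 20.7 to 39.7 in controls and 31.9 to 53.3 in *Ets1*-KO cells, and the 6 B cell markers to at most 4.25. The T cell list was at 2746 to 2889 in controls and 2961 to 3089 in *Ets1*-KO cells. The part of *Nefl*, the myeloid markers and the T cell markers in the *Calca* difference was not tested.

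**Figure D2:**
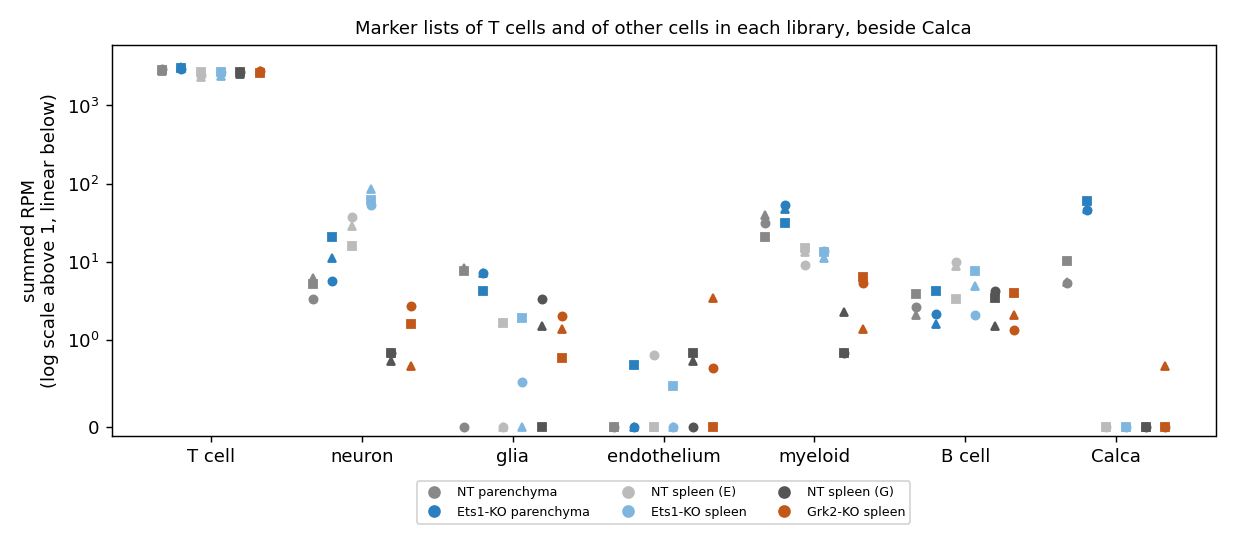
Level of each marker list (summed RPM) and of Calca in the 18 libraries (y axis logarithmic above 1 and linear below); colours mark the groups and symbols the replicates. The T cell list lies between 2300 and 3089 in every library. The neuron list is highest in the spleen Ets1-KO libraries, where Nefl made up 66.5 RPM and Calca had no read. The 11 neuron markers other than Nefl summed to 0.798 RPM there, against 2.01 in control and 1.73 in Ets1-KO cells of the parenchyma.

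Genes whose products make, accompany or break down such a peptide had few reads or none. The processing list holds the convertases *Pcsk1* and *Pcsk2*, the trimming enzyme *Cpe*, the amidating enzyme *Pam*, the chaperone *Scg5*, and *Mme* and *Ece1*, which break peptides down. None of its 7 genes reached the minimum for testing (a mean normalized count of at least 10) in any table, and the highest value was 15 reads of *Ece1* in 1 library. *Pcsk2* and *Mme* had no read in the 18 libraries. *Pam*, which forms the amide end of CGRP, had 3 reads in the parenchyma controls and 0 in parenchyma *Ets1*-KO cells. Of 10 other neuropeptide genes, 6 had no read in any library, and the highest value was 5 reads of *Nmb* in 1 library.

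The genes whose levels followed *Calca* most closely over the 18 libraries were *Batf3* (Pearson r = 0.979 of log2(RPM + 1)), *Barx2* (0.978), *Alpl* (0.974), *Prf1* (0.972) and *Prdx5* (0.967), out of 7777 genes compared. These values are descriptions, since libraries of a group share tissue, genotype and depth. The genes were picked for their likeness to *Calca*, so the pattern they share with it follows from that choice. *Batf3* encodes a transcription factor of the AP-1 family, *Barx2* a homeobox factor, *Alpl* an alkaline phosphatase, *Prf1* the pore-forming protein perforin and *Prdx5* a peroxiredoxin. *Barx2* ranged from 5.17 to 8.02 RPM in control and from 20.9 to 30.5 in *Ets1*-KO cells of the parenchyma. *Prf1* was at 901.8 to 1077 and at 1926 to 2015 in these groups, and at 131 to 232 in the spleen. *Batf3*, *Barx2* and *Alpl*, like *Calca*, stayed below 1.4 RPM in every spleen library, while *Prf1* and *Prdx5* were read throughout. *Batf3*, *Barx2* and *Alpl* thus met the minimum for this comparison (a mean normalized count of at least 10 in any table) only through the parenchyma, where KO cells held more of them.

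**Figure D3:**
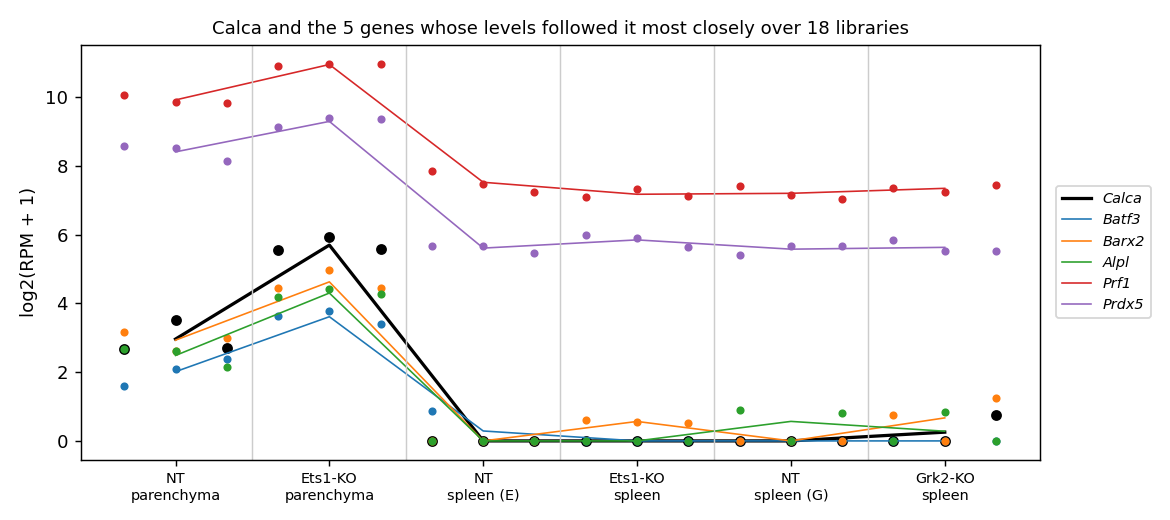
Level of Calca and of the 5 genes most like it, as log2(RPM + 1) on the y axis, in 18 libraries ordered by group; points are libraries and lines join the group means. All 6 genes are highest in the 3 Ets1-KO libraries of the parenchyma, which follows from how they were chosen.

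*Calcrl*, which encodes the receptor protein itself, was detected at a few reads per library in every group. In the parenchyma it had 9.34, 6.58 and 11.8 normalized counts in control cells (9.24 ± 2.61) and 4.04, 5.05 and 7.93 in *Ets1*-KO cells (5.68 ± 2.02). Each KO library was below its same-numbered control, and the groups overlapped. In the spleen *Ets1* table the control libraries had 8.75, 7.53 and 9.40 (8.56 ± 0.951) and the KO libraries 8.22, 11.2 and 8.74 (9.37 ± 1.57), and these groups overlapped too. Both tables had a mean of *Calcrl* below the minimum of 10, so it was not tested there. In the *Grk2* table it passed, with 9.76, 13.3 and 11.1 in control (11.4 ± 1.79) and 7.86, 14.5 and 17.3 in KO libraries (13.2 ± 4.84). Its log2 fold change was 0.14 ± 0.36 (95% interval -0.56 to 0.85, adjusted p = 0.937 by limma), an interval that leaves changes in either direction possible, and without replicate 3 the value was -0.082.

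*Ramp1*, whose product turns the protein encoded by *Calcrl* into a CGRP receptor, rose in *Ets1*-KO cells of the spleen. Control libraries held 31.7, 24.7 and 26.6 normalized counts (27.7 ± 3.61) and KO libraries 69.8, 72.6 and 56.2 (66.2 ± 8.77). No KO library overlapped the controls, which 16.9% of the 6979 genes tested also showed in either direction and 8.04% in the same direction. The log2 fold change was 1.23 ± 0.22 (95% interval 0.77 to 1.68), with an adjusted p of 0.00328 by limma and all 3 pairs higher, by 1.11, 1.51 and 1.05. Of all genes tested 2.22% passed this threshold, 1.02% higher in KO cells, and *Ramp1* had rank 21 from the highest log2 fold change. The exact permutation test of this gene alone gave p = 0.1, the smallest value that 3 against 3 libraries allow.

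The *Ramp1* call depended on 1 pair and on the variance model. Without replicate 1 the log2 fold change was 1.28 with an adjusted p of 0.264, and with limma's eBayes run without a trend the adjusted p was 0.236. These settings called 3 and 0 of the 6979 genes, against 155 in the main fit, so the loss was not particular to *Ramp1*. Without replicate 3, whose KO library stood apart from its group, it was 1.31 with an adjusted p of 0.000146. With all libraries thinned to the depth of the shallowest one, the log2 fold change was 1.27 (adjusted p = 0.00889). In the same libraries the neuron list was at 15.8 to 37.1 RPM in controls and at 53.4 to 84.5 in KO cells, of which *Nefl* made up 26.9 and 66.5 RPM, and the 11 markers other than *Nefl* had 1 and 5 summed reads. Of the 12 neuron markers, 10 were at 0 in the controls and 9 in the KO cells. Besides *Nefl*, *Trpv1* was read in the controls, and *Nefm* and *Stmn2* in the KO cells. The part of these markers in the *Ramp1* difference was not tested.

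In the parenchyma *Ramp1* was at 47.6, 60.2 and 37.3 in control cells (48.4 ± 11.4) and at 47.5, 62.7 and 69.1 in *Ets1*-KO cells (59.8 ± 11.1). The groups overlapped, and 2 of 3 pairs were higher in KO cells. In this tissue its log2 fold change was 0.31 ± 0.19, against 1.23 ± 0.22 in the spleen. Whether the effects in the 2 tissues differ was not tested. In the *Grk2* table, control cells had 36.9, 32.1 and 30.4 (33.1 ± 3.36) and KO cells 55.0, 36.2 and 43.7 (45.0 ± 9.46). All 3 pairs were higher in *Grk2*-KO cells, but the groups overlapped, and the log2 fold change of 0.41 ± 0.21 (95% interval -0.004 to 0.83) had an adjusted p of 0.488.

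*Ramp3*, whose product makes an adrenomedullin receptor of the protein encoded by *Calcrl*, was higher in *Grk2*-KO than in control cells of the spleen. The controls had 85.6, 97.5 and 91.1 normalized counts (91.4 ± 5.97) and the KO libraries 114, 118 and 154 (129 ± 21.7). No library overlapped between the groups, as was the case for 12.2% of the 6985 genes tested in either direction and for 7.59% with KO cells higher. The log2 fold change was 0.48 ± 0.13 (95% interval 0.22 to 0.73), all 3 pairs were higher, and the adjusted p was 0.0268 by limma with replicate number as a block. In this comparison 1.56% of genes passed the threshold, 0.931% higher and 0.63% lower in KO cells. The exact permutation p was 0.1, again the smallest possible.

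This *Ramp3* call was not stable. It was lost without the block (adjusted p = 0.214), without any 1 of the replicate pairs (0.175, 0.313 and 0.528 without replicate 1, 2 and 3) and without the trend (0.535), and DESeq2 gave an adjusted p of 0.999. Of 13 alternatives 5 kept it under 0.05, with adjusted p between 0.025 and 0.999 over all of them and log2 fold changes between 0.34 and 0.58. The main fit called 109 genes in this comparison. Without the block 19 were called, with 1 pair left out 9 to 48, without the trend 0 and by DESeq2 9.

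In *Ets1*-KO cells the mean of *Ramp3* was lower than in controls in the parenchyma and higher in the spleen, where the difference did not pass. In the parenchyma it had 103.7, 81.8 and 90.4 normalized counts in controls (92.0 ± 11.0) and 66.7, 38.4 and 86.1 in KO cells (63.8 ± 24.0). All 3 pairs were lower in KO cells, with log2 differences of -0.63, -1.07 and -0.07, and the third KO library lay inside the control range. Its log2 fold change was -0.59 ± 0.16, given without a test, while the differences of its own pairs had an SD of 0.50. In the spleen the controls had 20.8, 22.6 and 40.7 (28.0 ± 11.0) and the KO libraries 50.7, 33.5 and 39.3 (41.2 ± 8.73), 2 of 3 pairs were higher, and the groups overlapped. Its log2 fold change there was 0.58 ± 0.27 (95% interval 0.03 to 1.13), with an adjusted p of 0.328.

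**Figure D4:**
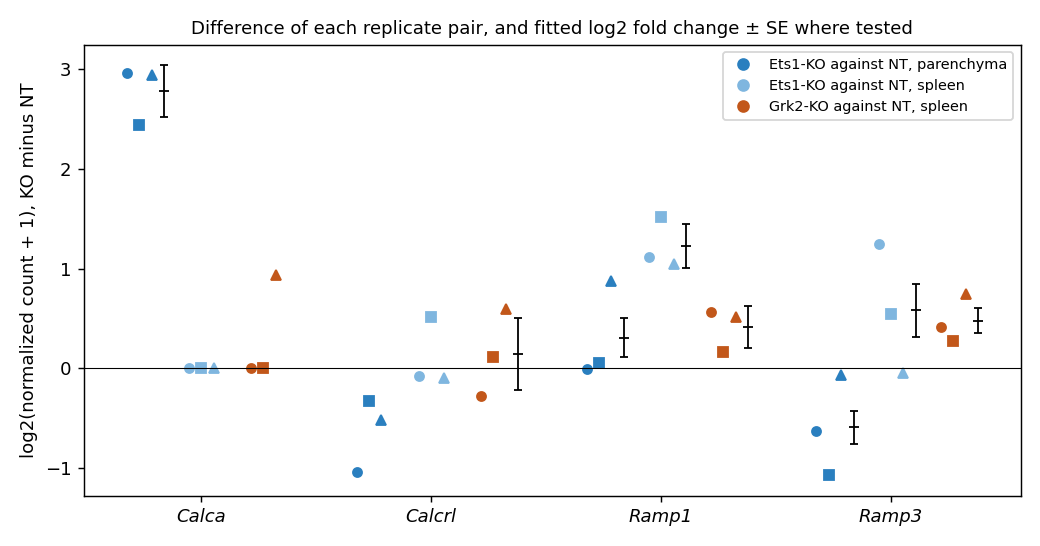
Difference KO minus NT on the log2(normalized count + 1) scale (y axis) for each replicate pair (symbols) of the 4 genes in the 3 comparisons (colours); black bars are the fitted log2 fold change ± SE where the gene reached the minimum count. Calca lies between 2.44 and 2.95 in the parenchyma, and Ramp1 between 1.05 and 1.51 in Ets1-KO cells of the spleen.

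Control cells alone were also set side by side between tissues, on RPM. *Ramp1* was at 34.2 (28.96 to 40.0, exact Poisson interval) in the parenchyma and at 20.8 (16.2 to 26.4) and 25.4 (20.5 to 31.1) in the 2 sets of spleen controls, which is 1.64 and 1.34 times as much in the parenchyma. Its parenchyma interval overlaps that of the second set, the controls of the *Grk2* table. All intervals here leave out the spread between libraries. *Calcrl* was at 6.47 (4.34 to 9.30), 6.34 (3.92 to 9.69) and 8.74 (5.98 to 12.3), intervals that overlap. *Ramp3* was at 64.7 (57.5 to 72.6) in the parenchyma, at 19.9 (15.4 to 25.3) in the spleen controls of the *Ets1* table and at 70.2 (61.9 to 79.3) in those of the *Grk2* table. The parenchyma thus held 3.25 times the *Ramp3* level of one set of spleen controls and 0.922 times that of the other. Both sets carry the same labels for tissue, genotype and time, so the order of *Ramp3* between tissues depends on which set is used.

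The genes most like the receptor genes over the 18 libraries were found in the same way. For *Ramp3* they were *Cd83* (r = 0.908), *Crem* (0.891), *Bcl6* (0.890), *Cox16* (0.889) and *Crebrf* (0.889). *Crem* encodes a transcription factor that answers to cAMP. Like *Ramp3*, it was lower in the spleen controls of the *Ets1* table (48.6 to 49.1 RPM) than in those of the *Grk2* table (342.4 to 389) and in the parenchyma controls (101.5 to 184). This likeness follows from how *Crem* was picked, and it is partial. For *Crem* the parenchyma controls lay below the spleen controls of the *Grk2* table, while for *Ramp3* they lay near them. A link with cAMP was not tested. For *Calcrl* the closest genes were *RGD1311595* (0.830), *Hspbap1* (0.824), *Phospho2* (0.817), *Tle4* (0.813) and *Azi2* (0.811). For *Ramp1* they were *Pctp* (0.736), *Gngt2* (0.736), AABR07036007.1 (0.733), LOC100363469 (0.728) and *Zfp637* (0.708).

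Of the 8 other genes of the calcitonin family and its receptors, 2 reached the minimum for testing. *Ramp2*, the accessory protein gene of the main adrenomedullin receptor, was at 8.55 ± 2.39 normalized counts in control cells of the parenchyma and 13.8 ± 2.81 in *Ets1*-KO cells, and at 55.4 ± 16.0 and 85.8 ± 13.4 in the spleen. Neither difference passed (log2 fold change 0.64 ± 0.40, adjusted p = 0.423, and 0.65 ± 0.21, adjusted p = 0.108), nor did that in *Grk2*-KO cells (0.33 ± 0.17, adjusted p = 0.496). In control cells *Ramp2* was 6.86 and 6.57 times higher in the 2 sets of spleen libraries than in the parenchyma by RPM. *Crcp*, which encodes a protein described as a CGRP receptor component, did not pass in any comparison, with log2 fold changes of -0.16 ± 0.13, 0.12 ± 0.17 and 0.18 ± 0.14. The ligand genes *Adm*, *Adm2* and *Iapp* and the decoy receptor gene *Ackr3* had no read in any library, and the calcitonin receptor gene *Calcr* had 1.

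The other genes of the pathway were taken from lists of 77 genes in all, of which 76 were in the tables. In *Ets1*-KO cells of the parenchyma 30 were tested, 2 rose, 1 fell and 27 did not pass. This is 10% of those tested against 5.23% of all genes, with a median log2 fold change of -0.05 against -0.03. *Pde8a*, a phosphodiesterase that breaks down cAMP, rose from 17.4 ± 6.97 to 47.6 ± 3.68 (log2 fold change 1.47 ± 0.26, adjusted p = 1.35e-06). *Nr4a2*, a nuclear receptor gene that cAMP can induce, rose from 132.3 ± 21.1 to 205.9 ± 32.1 (0.63 ± 0.12, adjusted p = 1.74e-05). *Pde4b*, another cAMP phosphodiesterase, fell from 138.5 ± 6.93 to 85.7 ± 5.23 (-0.69 ± 0.14, adjusted p = 8.64e-05). All 3 pairs agreed in direction for each of these genes. Without the trend 0 of the listed genes passed here, and by DESeq2 1 did.

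In *Ets1*-KO cells of the spleen 26 pathway genes were tested, 1 rose and 25 did not pass, which is 3.85% against 2.22% of all genes, with a median log2 fold change of 0.08 against 0.00039. The gene that rose was *Fos*, an immediate early gene, from 252.6 ± 23.2 to 459.6 ± 18.4 (log2 fold change 0.86 ± 0.12, adjusted p = 0.000166). In *Grk2*-KO cells 31 were tested, and only the targeted *Grk2* itself passed, which is 3.23% against 1.56%, with a median of 0.04 against 0.02. That share rests on the edited gene alone, and none of the other listed genes passed. *Nr4a1*, a relative of *Nr4a2*, missed the threshold there, at 45.9 ± 15.7 in control and 71.3 ± 25.6 in KO cells (0.61 ± 0.18, adjusted p = 0.0501). *Gnas*, which encodes the Gs subunit, and the tested genes of protein kinase A subunits did not pass in any of the 3 comparisons. The lists were chosen with earlier results of these data known, so their counts and the adjusted p-values of their genes are a description.

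**Figure D5:**
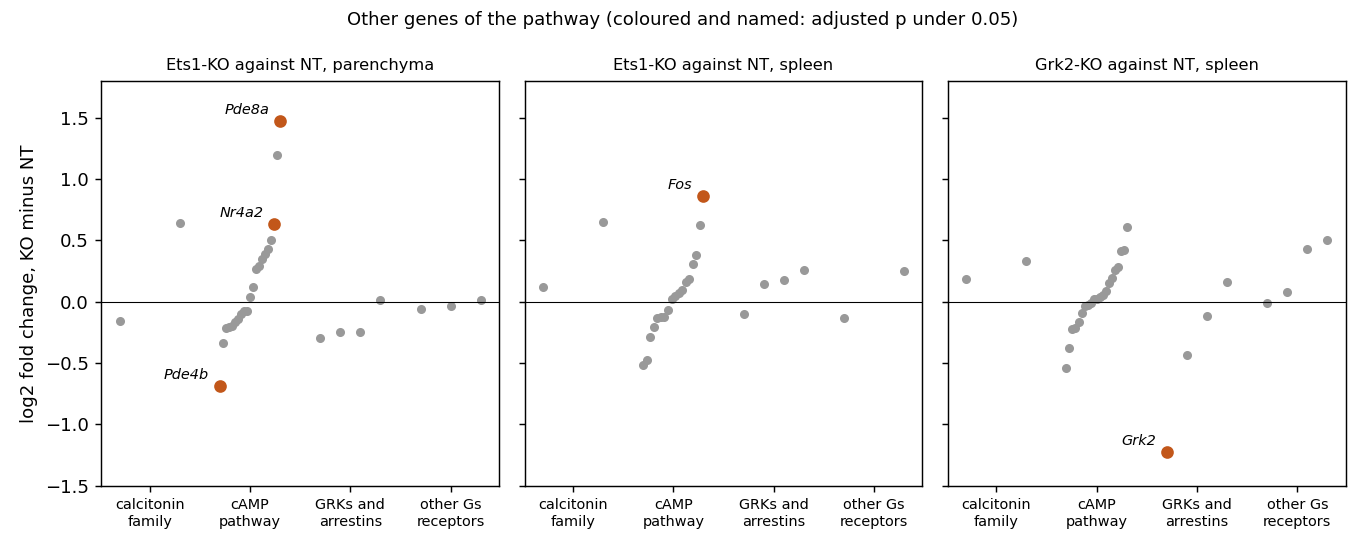
Fitted log2 fold change, KO minus NT (y axis), of each pathway gene tested, by list (x axis) and comparison (panels); coloured and named points passed an adjusted p of 0.05 by limma. Pde8a and Nr4a2 lie above and Pde4b below 0 in the parenchyma, Fos above 0 in the spleen Ets1 comparison, and Grk2 at -1.22 in the Grk2 comparison.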

How the data were processed

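The deposited signal values are reads per gene divided by a size factor of the library. According to the methods and the submitters' processing notes, the authors aligned untrimmed reads to Rnor_6.0 with STAR 2.7.2b, counted them per gene with HTSeq 1.0.0 and scaled them with DESeq2 2.11.40.7 (poscounts), separately for each of 3 tables. All positive values were multiples of 1 step per library (tolerance 0.01), from which whole reads were recovered. Columns were matched to samples by name, from the titles, since the descriptions spell the column of the third *Grk2*-KO library in different ways. limma 3.58.1 in R 4.3.3 (lmFit, then eBayes using the mean-variance trend) was fitted per table to log2(normalized count + 1) of all genes averaging 10 or more, blocked on replicate number, since the methods mention a correction per animal where applicable, without saying for which tables or that replicate numbers are animals, and Benjamini-Hochberg adjustment over all genes tested (two-sided, threshold 0.05). Fold changes on this scale understate those of low genes. Alternatives used edgeR 4.0.16 and DESeq2 1.42.0 on recovered reads. The fit was tested on simulated data. The genes, lists and rules were chosen with earlier results of these data known: the text names the 4 genes, the targeted genes, each list gene that passed or whose absence is stated, and the 5 genes most like each by Pearson's r. Files of the authors' own comparisons (fold changes and p-values) and 8 columns of human values were not used here. Among libraries of 1 group and between the 2 sets of spleen controls, the pairs compared, none was identical or agreed within sampling noise.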

Additional observations from a re-analysis of the deposited data

Results flagged for a closer look

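*Pde4b* was singled out because its *Ets1*-KO effect pointed to opposite sides in the 2 tissues in every pair. The mean difference on the log2 scale was -0.69 in the parenchyma and 0.31 in the spleen, where it did not pass. The rule was applied to the genes described here and the listed genes tested in both tissues, and only *Pde4b* met it. The share of all genes that would meet it was not counted. The difference between the tissues was not tested.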

How the results depend on the processing

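The log2 fold change of *Calca* in the parenchyma, the comparison that chose this gene, was 2.38 with a pseudocount of 5, given as a description. *Ramp1* in the spleen *Ets1* comparison kept its direction under all 11 and its call under 9. Its log2 fold change was 1.08 to 1.31 with 1 pair left out, and 1.23 without the trend. The call was lost without replicate 1 and without the trend. *Ramp3* in *Grk2*-KO cells kept its direction under all 13 but lost its call under 8, at log2 fold changes of 0.48 with no replicate block, with a mean of at least 50 (adjusted p = 0.0542) and without the trend, 0.45 with quantile normalization (adjusted p = 0.087), 0.47 by DESeq2, and 0.34 to 0.58 with 1 pair left out. *Calcrl* in *Grk2*-KO cells turned to -0.082 without replicate 3 (range to 0.35 with 1 pair left out), and had no call under any of 11. Calls among pathway genes in the parenchyma were 3, but 0 without the trend and 1 by DESeq2. In the spleen *Ets1* comparison there was 1, but 2 with no filter, 0 to 2 with 1 pair left out (0 without replicate 1) and 0 without the trend. In *Grk2*-KO cells there was 1, but 2 with a pseudocount of 0.1 or of 5 and 0 without the trend.

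With 3 pairs per gene the fits lean on the trend, whose prior had 22.0 and 141 degrees of freedom in the spleen tables and no finite number in the parenchyma, against 3.05 to 3.53 without a trend. The deviations of same-numbered libraries correlated at -0.003 to 0.175, not always over 0.1, so replicate numbers are not shown to pair libraries, although in the spleen *Ets1* table every library correlated best with its own number. With no replicate block the genes called fell from 366 to 200 in the parenchyma, from 155 to 71 in the spleen *Ets1* comparison and from 109 to 19 in *Grk2*-KO cells, and *Ramp1* kept its call (adjusted p = 0.00914). Other counts over all genes moved by over 1.5 times too: without the trend they were 3, 0 and 0, and by DESeq2 90, 50 and 9, while edgeR gave 354, 238 and 90. With 1 pair left out they were 165 to 278, 3 to 241 (3 without replicate 1) and 9 to 48, with no filter 212, 242 and 83, and with a mean of at least 50 they were 338, 143 and 60. DESeq2 gave no adjusted p for *Ramp1* in the spleen, and a mean of at least 50 left untested *Calca* and *Calcrl* in every table and *Ramp1* in both spleen tables, so the *Ramp1* call was not checked there, as well as *Ramp3* in the spleen *Ets1* table. Thinning to equal depth was chosen after seeing the data.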
